A study of Mus musculus with 4 samples.

Results

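Chromosome 8 of the mouse genome was examined for open chromatin in endothelial cells that had been sorted by flow cytometry from lung. The assay was ATAC-seq, whose transposase cuts and tags loosely packed DNA, so that accessible stretches appear as peaks of reads. The gene Dnmt3a was knocked out (KO) in 2 of the 4 libraries, named KO replicates 1 and 2, and intact (wild type, WT) in the others, named WT replicates 1 and 2. The labels gave the tissue, the cell type and the genotype of each library. The age of the mice, the way Dnmt3a was deleted and how many animals each library drew on are not given in the sources used here. Each library was deposited as peak positions on mm10, without read counts or scores, so its sequencing depth was unknown. A difference could be seen in whether a peak was listed and in how wide it was, in base pairs (bp). A region missing from a list may still have been open below the unstated calling threshold. Where nothing says that libraries of a genotype came from separate mice, tests over them measured only the spread between these libraries.

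Peaks of the 4 lists were merged wherever they overlapped by at least 1 bp, which gave 6256 regions on chromosome 8 out of 113056 regions on all chromosomes. All 6256 were kept. The regions ran from base 3179974 to base 129264029, and a peak of chromosome 8 was at least 201 bp wide in each library. A region called in both KO lists and in neither WT list had the KO pattern, and a region called in both WT lists and in neither KO list had the WT pattern. Regions called in 1 KO and 1 WT list were called mixed, and regions of all 4 lists were called shared. The chromosome and its groups of regions were chosen by these calls, since the number of KO-pattern regions on chromosome 8 was known from earlier results. The counts by pattern are therefore a description and were not tested.

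DNMT3A is a de novo DNA methyltransferase. It adds methyl groups to cytosines that are followed by guanine (CpG sites), and methylation of enhancers and promoters generally goes with closed chromatin. Stretches rich in CpG at gene starts are usually kept free of methylation, whereas distal enhancers gain or lose methylation as cells differentiate. Mouse chromosome 8 carries several genes of vascular importance, among them Cdh5 (the VE-cadherin of endothelial junctions), Klf2 (a transcription factor induced by blood flow), Efnb2 (the arterial ephrin B2), Angpt2 (a ligand of the TIE2 receptor), Nrp1 (a VEGF co-receptor) and the neighbouring collagen genes Col4a1 and Col4a2 of the basement membrane.

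Gene starts covered by regions of different patterns are shown first, because CpG sites are where DNMT3A acts. The KO pattern and the WT pattern were both rare at the gene starts that were listed, and many genes had no listed start. Each sequence holds the 250 bases before a start site, 5′ to 3′ on the strand of the gene, from RefSeq on GRCm38.p6, the assembly that mm10 names. Capitals mark CpG sites. Methylation itself was not measured in these libraries. The starts of Klf2 (chr8:72318812-72319061, plus strand), Palld (chr8:61591140-61591389, minus strand), Sipa1l2 (chr8:125569864-125570113, minus strand) and Zfp423 (chr8:87804440-87804689, minus strand) were listed in all 4 libraries, and the last 3 genes had more KO-pattern regions than any other gene. Each of these 3 genes also had a listed start without a peak in any library, with 2 CpG sites in Palld, 4 in Sipa1l2 and 18 in Zfp423. The starts of Hsh2d (chr8:72189418-72189667, plus strand), Fam149a (chr8:45382292-45382541, minus strand) and the non-coding gene Gm38426 (chr8:84913085-84913334, plus strand) were listed in both WT libraries and in neither KO library.
Klf2: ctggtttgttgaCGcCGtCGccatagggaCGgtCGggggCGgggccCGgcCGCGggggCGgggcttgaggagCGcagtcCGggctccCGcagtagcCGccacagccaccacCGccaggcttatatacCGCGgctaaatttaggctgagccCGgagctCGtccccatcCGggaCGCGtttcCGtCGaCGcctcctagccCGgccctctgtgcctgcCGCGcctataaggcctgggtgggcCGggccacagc
Palld: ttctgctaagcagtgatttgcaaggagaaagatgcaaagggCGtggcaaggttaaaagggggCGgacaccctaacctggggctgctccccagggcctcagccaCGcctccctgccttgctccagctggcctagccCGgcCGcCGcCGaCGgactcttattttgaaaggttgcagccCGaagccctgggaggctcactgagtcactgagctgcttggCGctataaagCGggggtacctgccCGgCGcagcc
Sipa1l2: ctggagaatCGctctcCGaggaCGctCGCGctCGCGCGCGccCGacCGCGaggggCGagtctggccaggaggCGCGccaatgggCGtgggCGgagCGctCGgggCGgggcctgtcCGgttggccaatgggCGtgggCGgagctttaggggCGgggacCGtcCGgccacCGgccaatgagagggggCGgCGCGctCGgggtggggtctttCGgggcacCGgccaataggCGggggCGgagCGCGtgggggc
Zfp423: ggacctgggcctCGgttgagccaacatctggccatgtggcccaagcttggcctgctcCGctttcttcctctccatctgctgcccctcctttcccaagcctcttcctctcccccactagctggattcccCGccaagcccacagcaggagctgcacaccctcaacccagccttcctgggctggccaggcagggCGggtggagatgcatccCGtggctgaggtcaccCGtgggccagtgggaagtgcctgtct
Hsh2d: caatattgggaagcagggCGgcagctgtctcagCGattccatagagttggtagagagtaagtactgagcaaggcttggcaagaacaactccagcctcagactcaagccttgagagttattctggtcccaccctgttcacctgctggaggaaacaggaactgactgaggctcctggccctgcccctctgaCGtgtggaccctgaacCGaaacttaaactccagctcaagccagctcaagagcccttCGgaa
Fam149a: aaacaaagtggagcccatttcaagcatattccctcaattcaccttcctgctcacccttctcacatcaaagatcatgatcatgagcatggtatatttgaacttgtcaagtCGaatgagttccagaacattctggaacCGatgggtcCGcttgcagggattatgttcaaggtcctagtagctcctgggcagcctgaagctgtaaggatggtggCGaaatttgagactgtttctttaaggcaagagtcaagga
Gm38426: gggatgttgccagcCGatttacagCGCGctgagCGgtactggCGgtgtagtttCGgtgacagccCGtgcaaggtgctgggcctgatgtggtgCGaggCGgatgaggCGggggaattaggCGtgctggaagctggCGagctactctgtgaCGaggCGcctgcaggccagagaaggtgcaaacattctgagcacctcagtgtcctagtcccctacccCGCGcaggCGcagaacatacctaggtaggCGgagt

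The shared starts held 29 CpG sites at Klf2, 37 at Sipa1l2, 13 at Palld and 6 at Zfp423. Those listed in WT libraries alone held 5 at Hsh2d, 4 at Fam149a and 18 at Gm38426. A start of Sox1ot, with 15 CpG sites, was also listed in both WT libraries and in neither KO library, and its window overlapped a region of a single list besides. Both sets therefore mixed CpG-poor and CpG-rich starts. Of the 1442 listed start windows on chromosome 8, which reached from 250 bases before to 50 bases after the start, 656 overlapped shared regions and no other kind. These had a median of 17 CpG sites in the 250 upstream bases (quartiles 11 and 25), against 3 (quartiles 1 and 5) for the 734 windows with no peak in any library. The GC box GGGCGG, letters bound by the Sp and KLF families, was found on either strand of the 250 upstream bases in 61.6% of the shared windows and 8.86% of the uncovered ones, against 32.7% of 32851 windows on all chromosomes. The AP-1 letters TGANTCA, which read the same on both strands and cannot hold a GC box, were found in 3.81% of the shared windows, 7.49% of the uncovered ones and 6.75% of all windows. A letter match is a description of the window and not a binding site. A single listed start window, that of the non-coding gene Gm31726, was reached by a KO-pattern region. It was reached by the peak of KO replicate 1 and not by that of KO replicate 2. No listed start window was therefore reached by a KO-pattern peak in both KO libraries. The list of starts was incomplete, with a start for 611 of the 879 protein-coding genes that had a region. Of the 65 such genes with a KO-pattern region, 37 had a listed start. Regions at starts missing from the list could not be counted. The Fam149a region had peaks of 289 and 285 bp in the WT libraries and none within 526 bp in the KO libraries, and the region at Gm38426, which lies inside Mast1, had 286 and 298 bp.

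The number of peaks on this chromosome differed more between the KO libraries than between the genotype means. The KO lists gave 4742 and 5619 peaks for chromosome 8, and the WT lists gave 5579 and 5382. As a share of all peaks of a list this was 5.57% for each KO library, 5.50% for WT replicate 1 and 5.51% for WT replicate 2. The KO values lay above the WT values by 0.0652 percentage points (exact two-sided permutation test, p = 0.333, the smallest that 2 against 2 libraries allow). With lists of equal length the difference was 0.0094. Such a shift was not particular to chromosome 8. With the lists as deposited, KO minus WT was 0.115 percentage points on chromosome 11 and -0.120 on chromosome 1. Median peak width on the chromosome was 460.5 and 405 bp in KO and 436 and 446 bp in WT (exact permutation p = 1). KO replicate 1 had the shortest list and the widest peaks, KO replicate 2 the narrowest. KO replicate 2 also differed in peaks near sex-linked genes, with 0 of 4 single-copy Y genes having a peak within 2500 bp, against 4, 3 and 4 in KO replicate 1 and the WT libraries, and with 3 peaks at Xist against 1 in each other library. The part of this difference in the KO pattern was not tested, and results are given below with each library left out. Of the endothelial markers with a start in the table, 8 of 8 (Cldn5, Egfl7, Emcn, Erg, Flt1, Kdr, Tek and Tie1) had a peak there in each library. Among 4 leukocyte markers, a start peak was listed for 1 in WT replicate 1 (Lyz2) and for 0 elsewhere, Ptprc included. Epithelial markers had 1 of 3 in each library (Sftpb, with none at Epcam), fibroblast and mural markers 1 or 2 of 4, and erythroid and platelet markers 2 of 3. The part of other cells in the results was not tested.

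Most regions of chromosome 8 were shared. They numbered 4206, which is 67.2% of the chromosome's regions against 66.7% of the regions of all chromosomes. A further 669 regions (10.7% against 11.1%) were called in 3 lists, and 825 (13.2% against 13.4%) in a single list. Mixed regions numbered 277, or 4.43% against 4.72% over all chromosomes. The WT pattern held 173 regions, or 2.77% (95% Wilson interval 2.39 to 3.20) against 3.04%. The KO pattern held 106 regions, or 1.69% (interval 1.40 to 2.05) against 1.12%, the background over all chromosomes. Such intervals cover counting error alone.

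The KO pattern stood at the high end among chromosomes and among combinations of lists. Among chromosomes 1 to 19 and X, chromosome 8 had the highest KO-pattern share at 1.69%, followed by chromosome 6 at 1.41% and chromosome 17 at 1.32%, and chromosome 12 was lowest at 0.626%. Chromosome Y had 3 KO-pattern regions among 59. For the WT pattern chromosome 8 was 16th of 21. Each of the 15 possible combinations of lists was then counted on chromosome 8. Of all regions called in the KO lists together and in no other, 8.37% lay there (interval 6.96 to 10.0). The other 14 combinations ranged from 4.20% for KO replicates 1 and 2 with WT replicate 2 to 5.95% for KO replicate 2 with WT replicate 2. Regions called in KO replicate 1 alone gave 4.93% and in KO replicate 2 alone 5.91%. The chromosome was chosen with its number of KO-pattern regions known. The high place of the KO pair among chromosomes and combinations is therefore tied to that choice and was not tested.

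**Figure D1:**
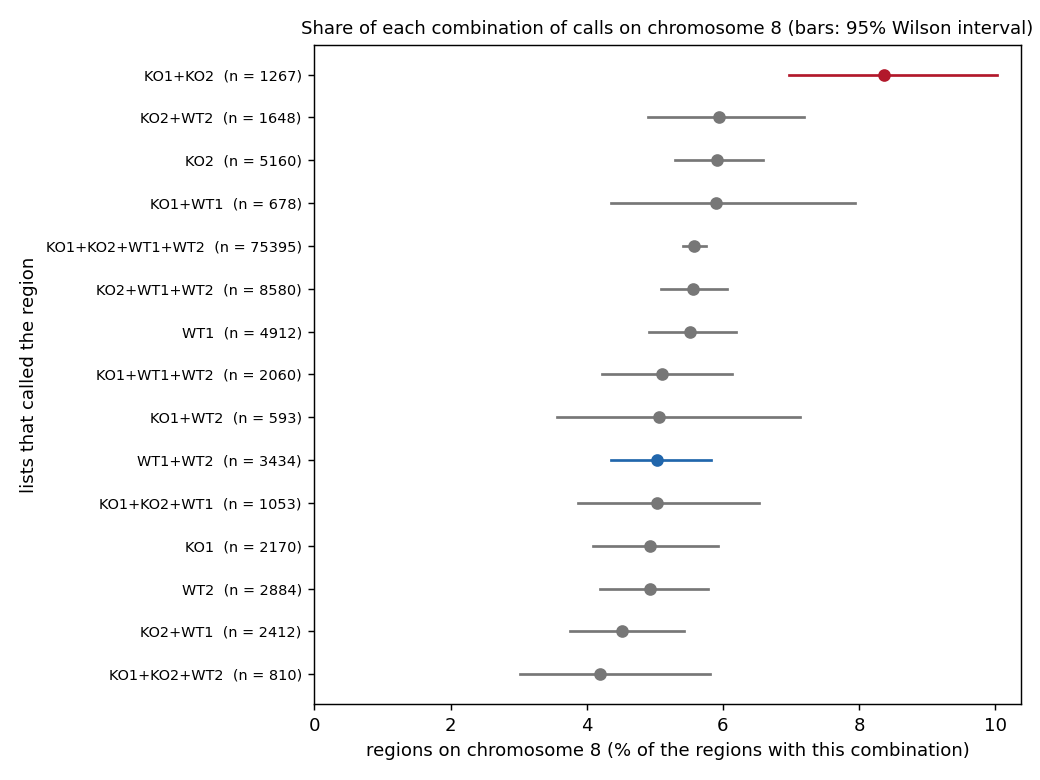
Share of the regions of each combination of lists that lay on chromosome 8, in percent, with the number of such regions on all chromosomes in brackets and bars for the 95% Wilson interval. The combination of both KO lists (red) is at 8.37%, both WT lists (blue) at 5.04%, and all others lie between 4.20% and 5.95%. The chromosome was chosen with its KO-pattern count known, so the place of the red point is tied to that choice.

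The high KO-pattern share was seen with all peaks and not among wide peaks. As a ratio of the chromosome's share to that of all chromosomes, the KO pattern stood at 1.51 (interval 1.25 to 1.83 from counting error on chromosome 8). It was 1.61 when a WT peak within 500 bp was also excluded and 1.50 when peaks had to overlap by 50% of the narrower one. It fell to 1.12 when all lists were cut to the length of the shortest, 85091 peaks, keeping the widest, and chromosome 8 was then 5th of 20. Among peaks no narrower than their list's median it was 0.704, with 25 regions on chromosome 8 among 635, and chromosome 8 was 19th of 20. Leaving out 1 library at a time, which asks for 1 list fewer, gave 1.15 and 417 regions without KO replicate 1, and 1.12 and 214 regions with KO replicate 2 removed. Removal of WT replicate 1 gave 1.24 and 159 regions, and of WT replicate 2 gave 1.20 and 139 regions.

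**Figure D2:**
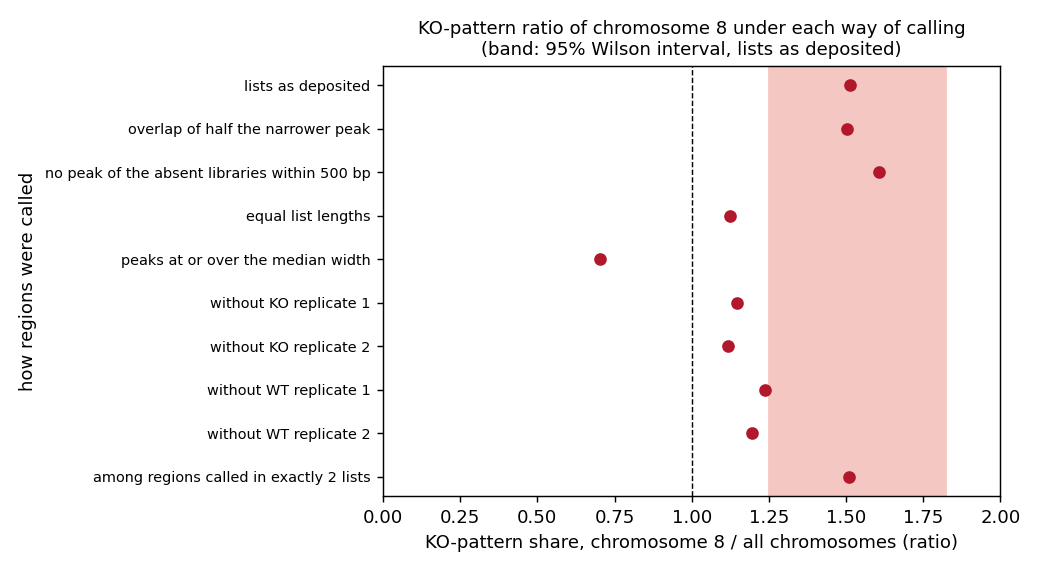
Ratio of the KO-pattern share on chromosome 8 to that on all chromosomes, for each way of calling regions, with a dashed line at equality and a band for the 95% Wilson interval of the deposited lists (1.25 to 1.83). The ratio is 1.51 for the lists as deposited, 1.12 with equal list lengths and 0.704 with peaks at or over the median width.

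Genotype-patterned regions were much narrower than shared ones. In KO-pattern regions the median was 248.5 bp in KO replicate 1 and 282.5 bp in KO replicate 2, and in WT-pattern regions it was 268 bp in WT replicate 1 and 259 bp in WT replicate 2. Mixed regions had medians of 249 to 252.5 bp and shared regions 478 to 512.5 bp. In KO replicate 1, 19 of the 106 KO-pattern regions were listed at exactly 201 bp, and in KO replicate 2, 16 were. Both peaks reached the median width of their list in 4 KO-pattern regions and in 4 WT-pattern regions. The 4 wide KO-pattern regions lay in Palld, Zfhx3 (a zinc finger homeobox factor) and Cmip, and at chr8:8984413-8985366, which has no protein-coding gene within 50 kb.

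**Figure D3:**
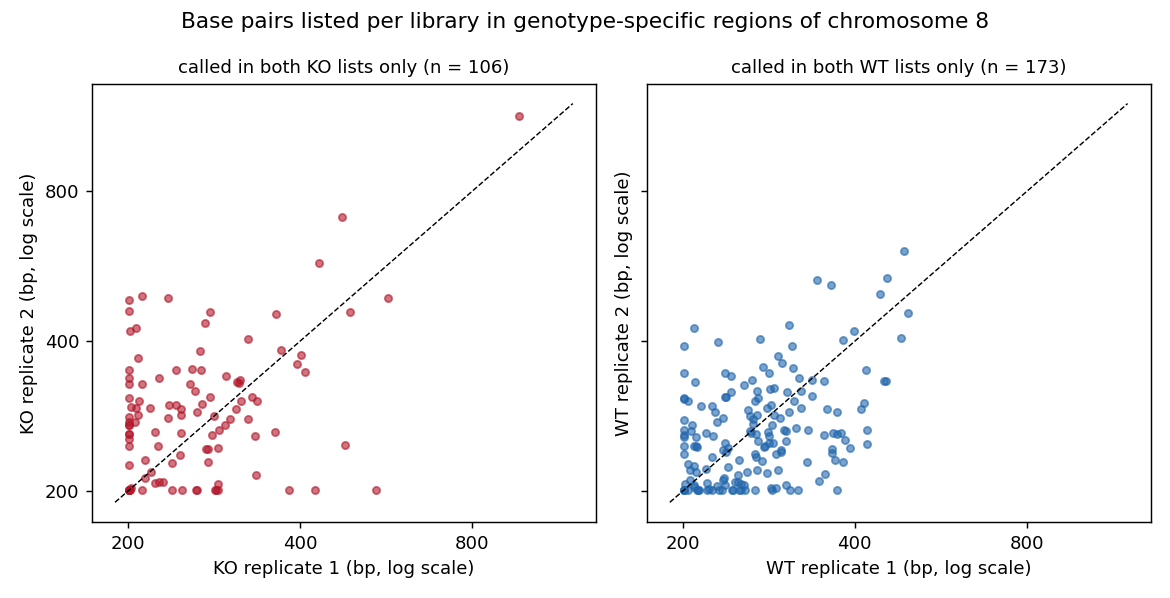
Base pairs listed per library in the 106 regions called in both KO lists only (left, red) and the 173 called in both WT lists only (right, blue), replicate 1 against replicate 2 on log axes, with a dashed line at equal width. Most points lie between 201 and about 400 bp in both panels, and the highest point on the left is the Palld region with 965 and 1131 bp.

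Along the chromosome, KO-pattern regions were more numerous where shared regions were dense, and some stretches were empty. In 26 windows of 5 Mb, the number of KO-pattern regions went with the number of shared regions (Pearson correlation 0.71 and Spearman correlation 0.66 over windows that share the same libraries). The WT pattern did so too (0.71 and 0.82), as did mixed regions (0.83 and 0.89). The windows with the highest counts were those from 120 and 125 Mb, each with 13 KO-pattern regions beside 12 and 11 WT-pattern regions, 22 and 22 mixed regions, and 490 and 255 shared regions. As a share of the regions of a window this was 1.81% from 120 Mb, near the 1.69% of the whole chromosome, and 3.32% from 125 Mb. The highest share, 4.29%, was in the window from 15 Mb, with 3 KO-pattern regions among 70. The windows from 120 and 125 Mb together held 24.5% of the KO-pattern regions, 13.3% of the WT-pattern regions, 15.9% of the mixed regions and 17.7% of the shared regions. The window from 85 Mb followed with 9 KO-pattern, 13 WT-pattern and 21 mixed regions, and the window from 90 Mb with 8, 7 and 13. In 5 of the 26 windows the KO pattern outnumbered the WT pattern, namely those from 25, 60, 90, 120 and 125 Mb. The 6 windows from 0, 40, 50, 55, 95 and 100 Mb held no KO-pattern region, whereas each window held at least 1 WT-pattern region. The longest stretch without a KO-pattern region ran for 13523064 bp between the regions nearest Wwc2 and Palld, from base 48009142 to base 61532206. Neighbouring KO-pattern regions lay within 100 kb of each other in 29 of 105 cases (27.6%), WT-pattern regions in 39 of 172 (22.7%) and mixed regions in 91 of 276 (33.0%).

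**Figure D4:**
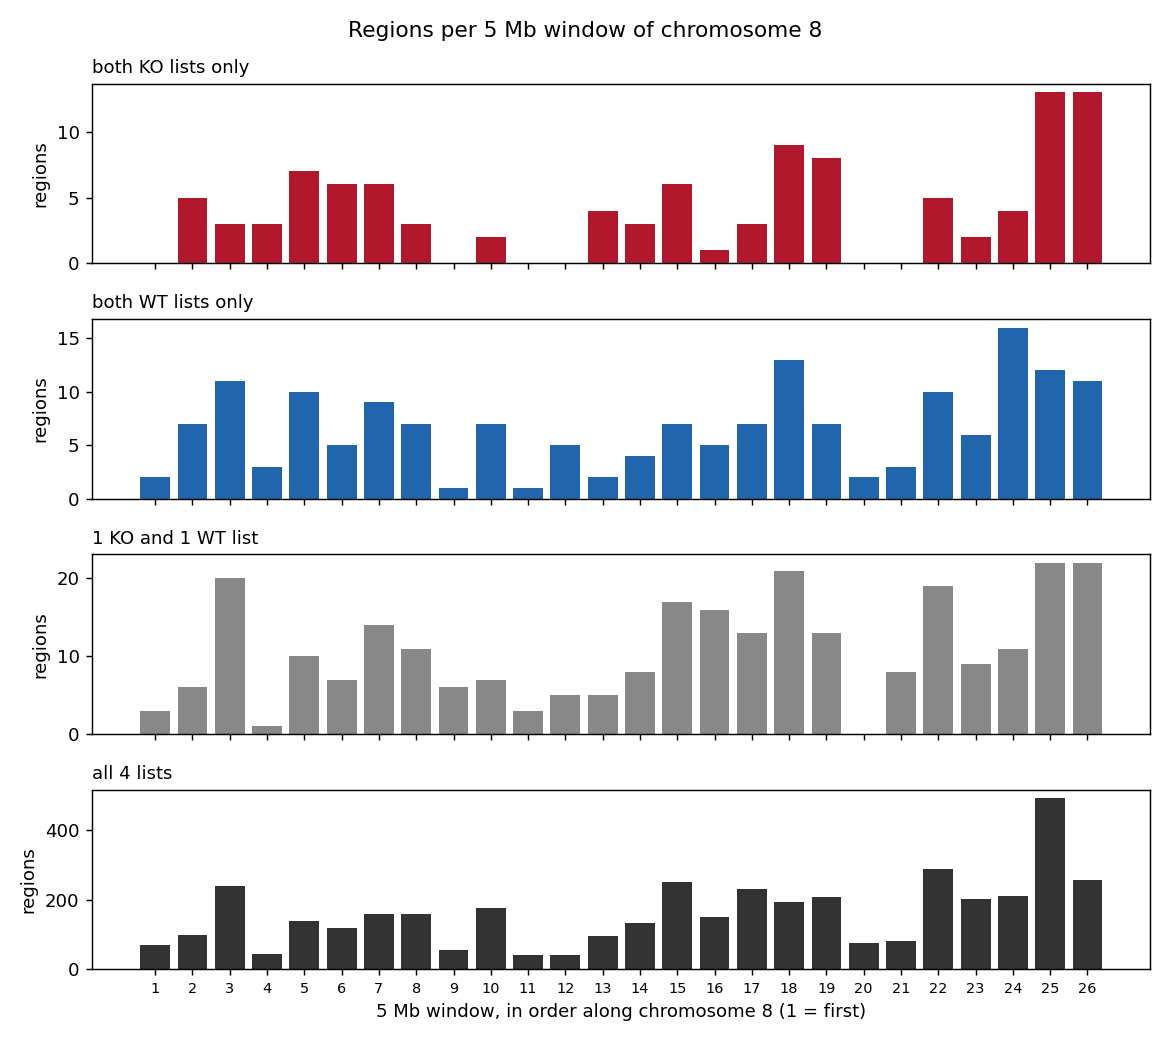
Number of regions in each of 26 consecutive 5 Mb windows of chromosome 8, numbered from the first, for regions of both KO lists only, both WT lists only, 1 KO and 1 WT list, and all 4 lists. The KO pattern peaks at 13 in each of windows 25 and 26 and is at 0 in 6 windows, and the shared regions peak at 490 in window 25.

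The window from 120 Mb held KO-pattern regions in or near 7 genes. Gse1, which encodes a coiled-coil protein of a histone demethylase complex, held 2, with peaks of 288 and 244 bp and of 382 and 201 bp. Zfpm1, which encodes FOG1, a cofactor of GATA factors, also held 2, with 334 and 258 bp and with 314 and 335 bp. Ankrd11 and Zfp469 held 1 each, Fanca, a DNA repair gene, had 1 at a distance of 1297 bp, and Zcchc14 had 1 at 21290 bp. First of these by the ranking on width described below was the region in Galnt2, an enzyme that starts O-glycosylation of proteins, with 324 and 405 bp. A further 4 regions of this window had no protein-coding gene within 50 kb. The window from 125 Mb held regions at Disc1 (2), Tsnax, Irf2bp2, Rbm34 and Pard3, a cell polarity gene, besides the 4 of Sipa1l2 described next. In Tsnax and Pard3, and 9927 bp from Irf2bp2, both peaks were at the minimum of 201 bp. The window from 85 Mb held regions at Cks1brt, 4921524J17Rik, N4bp1 and Gpt2, an alanine aminotransferase gene, and the 4 of Zfp423.

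The genes with most KO-pattern regions were Palld, Zfp423 and Sipa1l2, with 4 each, where regions within 50 kb are counted with the nearest gene. Palld encodes palladin, a scaffold of actin bundles. Its first region by width, at chr8:61549519-61550672, held a peak of 965 bp in KO replicate 1 and peaks of 795 and 336 bp in KO replicate 2, and the nearest WT peak was 8806 bp away. The other 3 were at chr8:61532071-61532342 (201 and 272 bp), chr8:61589913-61590404 (212 and 492 bp) and chr8:61715405-61715698 (207 and 294 bp). The third of these 4 regions along the gene lay 981 bp from the start site whose sequence is given above, and 210 bp from a WT peak. Palld held 48 regions in all, of which 33 were shared and 1 had the WT pattern. It spans 391 kb, from base 61511431 to base 61902707.

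Zfp423, a zinc finger transcription factor of neural and fat cell development, held 3 KO-pattern regions inside the gene and had 1 more at 12288 bp outside. Their peaks measured 219 and 294 bp, 201 and 272 bp, 362 and 263 bp, and, for the outside one, 214 and 213 bp. The outside region at chr8:87974188-87974495 lay 103 bp from a WT peak, the smallest such distance of any KO-pattern region on the chromosome. On the other side of the overlap rule, the mixed region with the least overlap was joined by 16 bp, at chr8:75272121-75272571 near Rasd2. Zfp423 held 58 regions, 29 of them shared, 1 of WT pattern and 4 mixed, so that KO-pattern and mixed regions were equal in number there.

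Sipa1l2 belongs to a family of proteins that switch off Rap GTPases. It held 2 KO-pattern regions, at chr8:125429064-125429533 (425 and 201 bp) and chr8:125498513-125498894 (268 and 382 bp), and was nearest to 2 more at distances of 4483 and 26528 bp (249 and 201 bp, and 227 and 338 bp). It held 53 regions in all, 36 of them shared and 1 of WT pattern. With lists of equal length, the 4 regions of Palld kept the KO pattern, while 2 of 4 at Zfp423 and 2 of 4 at Sipa1l2 did.

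A further 12 genes had 2 KO-pattern regions each, counted in the same way with the nearest gene. Of these, 5 also had WT-pattern regions: Psd3, an exchange factor for Arf GTPases, had 3, Fto, an RNA demethylase gene, had 2, and Gse1, Mcph1 and Tacc1 had 1 each. The other 7 had none, namely Chd9, a chromatin remodeller, Nfix, a nuclear factor I transcription factor, Slc20a2, a phosphate transporter, Zfpm1, Disc1, Got1l1 and Gm39147. Both regions of Gm39147 lay outside the gene, at 45044 and 35504 bp. A region of Tacc1 lay 17995 bp outside and a region of Got1l1 36 bp outside. The 2 regions of Nfix had peaks of 201 and 328 bp and of 235 and 488 bp, wider in KO replicate 2. Those of Fto had 370 and 384 bp and 201 and 201 bp. In Chd9 the peaks were 337 and 304 bp and 297 and 341 bp, and the first lay 114 bp from a WT peak. At 2 genes the WT pattern was the more frequent, with 6 regions against 1 of KO pattern: Dlc1 and Nrg1, which encodes the ErbB ligand neuregulin 1.

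In all, 86 of the 106 KO-pattern regions lay in or within 50 kb of 65 protein-coding genes, and 64 (60.4%, interval 50.9 to 69.2) had their centre inside a gene. For the WT pattern 84 of 173 were inside genes (48.6%, interval 41.2 to 56.0), for mixed regions 153 of 277 (55.2%) and for shared regions 58.6%. Exons and introns were not separated, since the gene table gives whole spans. Within 1000 bp of a listed start site lay 3 KO-pattern regions (2.83%), 7 WT-pattern regions (4.05%), 11 mixed regions (3.97%) and 588 shared regions (14.0%). A start was listed for 611 of the 879 genes with a region, so these shares leave out starts of the other genes. Genes with a start in the table usually had an open one. For the KO pattern there were 37 such genes, and 31 of them (83.8%) had a start with a peak in all 4 libraries. This compares with 48 of 65 (73.8%) for the WT pattern and 462 of 611 (75.6%) for all genes with a region on the chromosome. No peak was found at any start of 5 of the 37 genes, against 13 of 65 and 121 of 611. Nfix, with 4 starts in the table, was among the 5. These genes were long, with a median span of 75.8 kb for the KO pattern and 54.1 kb for the WT pattern, against 21.5 kb for all genes with a region. They also had more regions of all kinds, with a median of 14 for the KO pattern and 12 for the WT pattern, against 3. Of the 65 genes, 22 also had a WT-pattern region, as did 95 of the 879 genes with any region. Whether either trait goes beyond the number of regions per gene was not tested.

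Each peak's width was expressed as its percentile in its own list. Ranked by the lower percentile of the 2 peaks, the KO-pattern regions after Palld began with the one at chr8:8984413-8985366 (570 and 489 bp), Zfhx3 (489 and 457 bp) and Cmip (474 and 710 bp). Further regions inside genes among the first 20 lay in Klhl26 (396 and 360 bp), the beta-defensin gene Defb14 (408 and 347 bp), Fto, the ubiquitin ligase gene Znrf1 (363 and 454 bp), Galnt2, Chd9 with both of its regions, Zfpm1, Hsd11b2, which encodes a glucocorticoid-inactivating enzyme (311 and 332 bp), and the metalloprotease gene Adam32 (324 and 279 bp). The region of Adam32 lay 39056 bp from the nearest WT peak, the largest distance of any KO-pattern region on the chromosome. A region 8109 bp from Tex15, a germ cell gene, had 309 and 293 bp, and 6 of the first 20 had no protein-coding gene within 50 kb. A WT peak lay within 500 bp of 15 of the 106 regions, among them those of Defb14 (225 bp), the first of Chd9 and that of Dlc1 (167 bp).

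By the same ranking the WT pattern began with a region 3111 bp from Sall1, a developmental zinc finger factor, at chr8:89023828-89024435 (487 and 608 bp). It was followed by regions in Cdh3, which encodes P-cadherin (455 and 536 bp), 3081 bp from Efnb2 (495 and 456 bp), 1925 bp from Hsh2d, an adaptor gene of blood cells (442 and 497 bp), and in Cmip (481 and 406 bp). Wwc2 (398 and 420 bp), 2 regions of Nrg1 (364 and 519 bp, and 353 and 333 bp), Csnk2a2, a kinase subunit gene whose region lay 88 bp from a KO peak (344 and 532 bp), and a region 47465 bp from Mcph1 came next. Hsh2d had 2 regions in all, both with the WT pattern, and the one at its start reaches into the sequence shown above. Cmip appeared in both rankings, with a KO-pattern region at chr8:117314291-117315000 and a WT-pattern region at chr8:117323093-117323573. The first 5 mixed regions lay near Scrg1 and Sult5a1, in Tango6 and Cmtm4, and in a stretch without a protein-coding gene. Their widths resembled those of the first genotype-patterned regions, as in Scrg1 (591 bp in KO replicate 1 and 609 bp in WT replicate 1) and Tango6 (379 bp in KO replicate 2 and 375 bp in WT replicate 2).

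The 26 endothelial and vascular genes of chromosome 8 held 426 regions. Of these, 286 (67.1%) were shared and 11 were mixed. The KO pattern held 5 (1.17%, against 1.69% on chromosome 8 and 1.12% over all chromosomes). The WT pattern held 16 (3.76%, against 2.77% on chromosome 8 and 3.04% over all chromosomes). The 5 KO-pattern regions lay in 2 genes, 4 in Palld and 1 in Dlc1. The WT pattern was found at 9 genes: Dlc1 with 6 regions, Efnb2 and Cdh13 with 2 each, and Cdh5, Nrp1, Col4a1, Col4a2, Palld and Itgb1 with 1 each. The Cdh5 region, at chr8:104078571-104078947, lay 22854 bp outside the gene and had peaks of 304 and 317 bp, and the gene's 16 shared regions outnumbered it. The second Efnb2 region lay inside the gene (420 and 266 bp), 548 bp from a KO peak. The Nrp1 region lay inside the gene, at chr8:128410306-128410677 (372 and 288 bp). The 7 regions of Klf2 and the 2 of Lyl1, a factor of the endothelial and blood lineages, were shared without exception, and Angpt2 held 6 shared regions of 9.

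Other lists of genes on this chromosome gave small numbers, to be read against the chromosome's own 1.69% for the KO pattern and 2.77% for the WT pattern, and 1.12% and 3.04% over all chromosomes. The 16 signalling and nuclear factor genes held 3 KO-pattern, 2 WT-pattern and 10 mixed regions among 166 (KO 1.81%, WT 1.20%), with the KO pattern at Nfix and at Nfat5, the osmotic stress factor (201 and 260 bp), and the WT pattern at Irf2 and Tlr3. Tlr3 encodes a sensor of double-stranded RNA. Irf2, an interferon regulatory factor gene, had most regions of this list, 33, of which 25 were shared. The 10 developmental transcription factor genes held 0 KO-pattern and 3 WT-pattern regions among 72 (WT 4.17%), the latter near Irx3, Irx6 and Sall1, and Foxf1, a mesenchymal and endothelial forkhead factor, had most regions with 17. The 8 cadherin genes held 0 KO-pattern and 5 WT-pattern regions among 100 (WT 5.0%), namely 2 in Cdh13 and 1 each in Cdh1, in Cdh3 and near Cdh5. A list of 12 genes, each over 100 kb long except Zfpm1 at 56.0 kb, held 7 KO-pattern regions, 17 WT-pattern regions and 11 mixed regions among 248 (KO 2.82%, WT 6.85%). The KO pattern was at Fto, Psd3 and Zfpm1 with 2 each and at Nrg1 with 1, and the WT pattern at Nrg1 with 6, Psd3 and Wwox with 3, Fto and Tenm3 with 2 and Csmd1 with 1. Wwox, a gene at a common fragile site, had most with 67, of which 43 were shared and 3 had the WT pattern.

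Peak width at shared regions was not used to choose the members, and it was tested across all 75395 shared regions of the genome with limma on quantile-normalised log2 width. After Benjamini-Hochberg adjustment 0 of 4206 regions on chromosome 8 differed between KO and WT (smallest adjusted p = 0.537), as did 0% of all regions. At an unadjusted p under 0.05 there were 269 on chromosome 8 (6.40%), against 6.03% of all regions, and 121 of these were wider in KO and 148 wider in WT (59 and 241 with widths as deposited). The median difference in log2 width, KO minus WT, was 0.0067 on chromosome 8 and 0.0093 over all chromosomes. Without quantile normalisation these medians were -0.051 and -0.047, so the direction depended on the scaling. By library the median deviations on chromosome 8 were -0.011 and 0.021 in KO and -0.00053 and -0.0047 in WT, so the KO libraries lay on both sides of the WT libraries (exact permutation p = 1). Over the 5 Mb windows the median ranged from -0.013 from 10 Mb to 0.055 from 40 Mb. Shared regions at genes with at least 2 KO-pattern regions had a median of 0.024 over 326 regions, 190 of them wider in KO. That value comes from the same lists as the choice of genes and was not tested.

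The shared regions with the smallest unadjusted p on chromosome 8 were picked for a difference in width between genotypes. Their lack of overlap in width therefore follows from the choice, and 0 passed adjustment with limma. In Gse1, at chr8:120449133-120450185, the listed widths were 971 and 882 bp in KO and 338 and 390 bp in WT, a log2 difference of 1.42 (SE 0.114, limma, adjusted p = 0.537). A region 11253 bp from Sap30, a subunit gene of the Sin3 corepressor, measured 477 and 591 bp in KO and 201 and 206 bp in WT. The WT peaks there were at or near the minimum width of 201 bp. In Ldhd, the D-lactate dehydrogenase gene, the widths were 831 and 676 bp in KO and 404 and 411 bp in WT. The other 7 of the first 10 were wider in WT. At chr8:50915216-50916641, with no protein-coding gene within 50 kb, widths were 469 and 503 bp in KO and 1242 and 1111 bp in WT. In Palld, at chr8:61730958-61731607, they were 241 and 313 bp against 650 and 591 bp, so that this gene held both its KO-pattern regions and a region wider in WT. Near Col4a1, at chr8:11195115-11196222, they were 505 and 513 bp against 934 and 1063 bp. Tom1, an endosomal sorting gene, Slc35f3 and Ankrd11 followed the same direction, and in Slc35f3 the KO peaks of 201 and 204 bp were at or near the minimum.

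**Figure D5:**
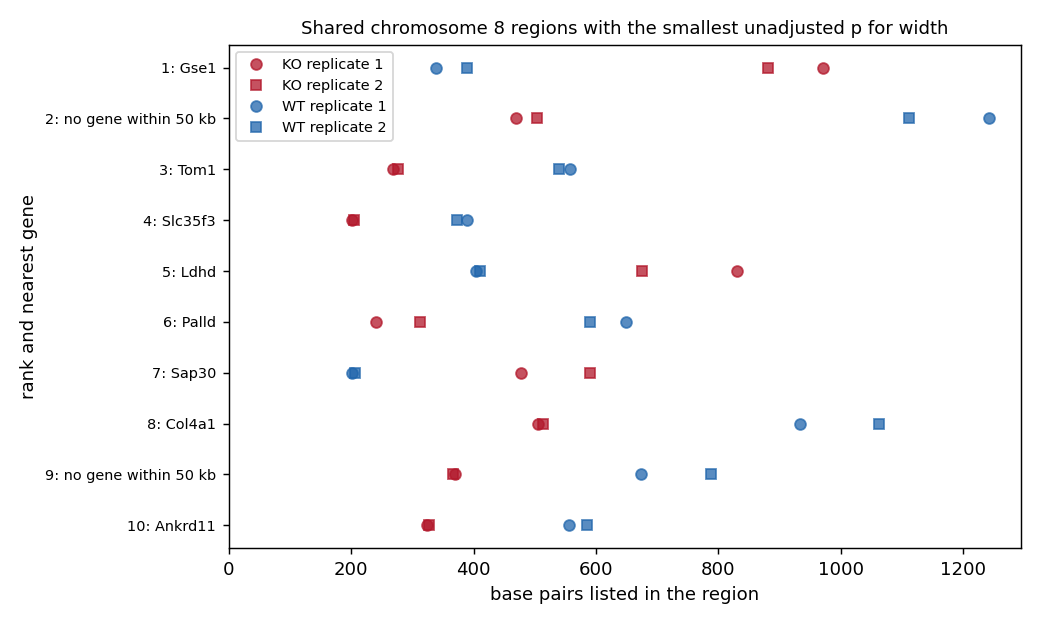
Base pairs listed in each library for the 10 shared chromosome 8 regions with the smallest unadjusted p for width, by rank and nearest gene, KO in red and WT in blue, circles for replicate 1 and squares for replicate 2. The regions were picked by this p, so the separation of the genotypes follows from the choice. Of the 10, 3 are wider in KO (Gse1, Ldhd and Sap30) and 7 in WT, and 0 pass adjustment.

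The 5 widest shared regions of the chromosome had the following widths in each library. The region over the start of Tll1, a metalloprotease gene of the BMP1 family, measured 2471 and 2052 bp in KO and 2210 and 2155 bp in WT. The one at the start of Nrp1 measured 2360 and 2097 bp against 2321 and 2513 bp, and the one in Pnpla6 measured 2305 and 2328 bp against 2326 and 2394 bp. A region 8127 bp from Slc10a7, a solute carrier gene, varied most between the KO libraries, at 2035 bp in KO replicate 1 and 850 bp in KO replicate 2, against 1308 and 1363 bp in WT. The region at the start of the same gene had 1898 and 1824 bp in KO and 2097 and 2107 bp in WT.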

How the data were processed

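The members, gene lists and windows were chosen with earlier results of these data known. Each deposited list holds peak positions and width in bp for 1 library on mm10, and the authors gave neither a score nor a count with it, per the file headers. Width is therefore the measurement used, and because the lists give no score it took the place of one in the rule for named genes. cutadapt, Bowtie2 and Picard are named in the submitters' processing notes. The peak caller and its threshold are not given in the sources used here.

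Peaks of the autosomes and of X and Y were joined at 1 bp of overlap. A region took the nearest protein-coding span within 50 kb of its centre (GRCm38.p6 gene table, 21887 genes). The width in a region is the sum of its peaks in a library, on the log2 scale after quantile normalisation of the deposited widths. limma with Benjamini-Hochberg adjustment at 0.05 was fitted over all shared regions. Named were genes with 2 or more KO-pattern regions, the first 20 KO-pattern, 12 WT-pattern and 5 mixed regions by width, genes of the 3 fullest windows, list genes with a patterned region, the 10 smallest width p-values, the 5 widest shared regions and the gene with most regions per list.

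The width test was checked on simulated data over 75395 regions. It recovered 1 of 100 planted log2 differences of 1, 66 of 100 at a log2 difference of 2 and 88 of 100 at 3, and made 6 false calls. A 2-fold difference in width was therefore mostly not detectable. Alternatives covered overlap, a 500 bp gap, list length, width, windows, normalisation, the replicate number as a block and each library left out. Software was limma 3.58.1 in R 4.3.3, and Python 3.11.15 with scipy 1.17.1, numpy 2.4.6 and pandas 2.3.3.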

Additional observations from a re-analysis of the deposited data

How the results depend on the processing

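Of the 106 KO-pattern regions, 91 kept the pattern with the 500 bp gap, 101 with 50% overlap, 62 with equal list lengths and 4 among peaks no narrower than their list's median. With only those wider peaks the KO pattern held 25 regions on chromosome 8, the WT pattern 109, the fullest window 4, and the ratio to all chromosomes was 0.704. With equal list lengths the WT pattern held 108 regions and the ratio was 1.12. Of 113 named KO-pattern and WT-pattern regions, 60 kept their pattern with equal lengths and 8 with the wider peaks; the cause was not tested. Leaving out each library asks for 1 list fewer and so adds regions: KO-pattern counts were 139 to 417, WT-pattern counts 285 to 650, the fullest window 17 to 67 and the ratio 1.12 to 1.24, and the 113 named regions kept their pattern by construction. Windows of 10 Mb gave 26 in the fullest, being wider. The median log2 width difference turned to -0.051 with widths as deposited and ranged from -0.011 (without KO replicate 2) to 0.028 over the libraries left out, and no setting gave an adjusted width call. Unadjusted p under 0.05 was reached on chromosome 8 by 269 regions with all libraries, by 461 and 766 when KO replicates 1 and 2 were left out in turn, and by 123 and 149 when WT replicates 1 and 2 were, each time with the lone library assumed to vary like the pair. Same-numbered libraries did not deviate together (r = -0.045 over shared regions), and with a replicate block the count of width calls stayed at 0 (smallest adjusted p = 0.668). The mean share of peaks on chromosome 8 stayed higher in KO in its 6 alternatives, but only the direction was kept with equal list lengths. The difference there was 0.0094 percentage points, against 0.0652 with the lists as deposited. Groups of 2 libraries and unknown depth limit what could be seen.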

Other observations

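Among peaks no narrower than their list's median, the 25 chromosome 8 regions with the KO pattern were mostly other places than the 106 counted with all peaks: 4 had the KO pattern with all peaks, 17 were shared and 4 were called in 3 lists. These regions were singled out after their values were seen. One lay in Zfpm1, at chr8:122335611-122336725, with 1048 and 1115 bp in the KO libraries, 241 bp in WT replicate 1 and no peak in WT replicate 2. This lay beside the 2 KO-pattern regions of the gene. The Gse1 region at chr8:120449133-120450185 and the Sap30 region at chr8:57498797-57499430, described above for their width, were among the 17. In other cases widths were close to the limit in all 4 libraries: in Tomm20 the 4 libraries listed 479, 428, 421 and 436 bp, and in Pard3 488, 407, 410 and 397 bp. For the WT pattern among wider peaks, 98 of 109 regions were shared with all peaks, 7 were in 3 lists and 4 had the WT pattern.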
